A study of Homo sapiens with 27 samples.

Results

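The HOX gene clusters were examined as targets of transposon insertion in HCT116, a cell line from a human colorectal carcinoma. The members were all insertion sites lying in or within 50 kb of the 4 HOX clusters, 4330 of 5365836 library sites (0.0807%) over 27 libraries. Each cluster was bounded by its outermost HOX genes in the RefSeq annotation of GRCh38.p14. The body of the HOXA cluster was chr7:27092993-27200091 with 11 genes, that of HOXB chr17:48528526-48728750 with 10 genes, that of HOXC chr12:53938831-54056030 with 9 genes and that of HOXD chr2:176087487-176190907 with 9 genes. A body with its left flank (the side of lower coordinates) and its right flank is called a HOX window below. The 4 bodies span 527.945 kb and the 4 windows 927.945 kb. A site is the first base of the 4-base target, counted a single time per library, whichever strand its peak was on.

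HOX genes encode homeodomain transcription factors that pattern the body axis. Within a cluster they lie in the order in which they are used, from paralog group 1 (anterior) to group 13 (posterior), and many keep a tissue-specific pattern of activity in adult epithelium. The clusters are gene dense and are known for holding few transposable elements in vertebrate genomes. The piggyBac transposon, first found in an insect, and piggyBat, from a bat, are cut-and-paste elements whose transposases insert at the letters TTAA.

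All groups used a self-reporting transposon, which is transcribed out into the flanking DNA so that its position can be read from RNA, and all cells were selected with puromycin at 3 µg/ml for 2 weeks. The groups had 3 libraries each. The wild-type transposon was used with piggyBac transposase (WT_PB), its hyperactive form (WT_hyPB), a re-engineered form (WT_rePB) or a re-engineered hyperactive form (WT_rehyPB). A short transposon was paired with piggyBac (short_PB) or the hyperactive form (short_hyPB), and a symmetric transposon with the re-engineered (sym_rePB) or re-engineered hyperactive form (sym_rehyPB). WT_PBat libraries are labelled as a wild-type transposon and piggyBat, and the labels do not say whether that transposon is the one of the other wild-type groups. The labels do not say what re-engineered, short and symmetric stand for, and nothing in them says that replicates came from separate cultures, so p-values measure the spread between these libraries, which may be technical.

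The 12 libraries of the first 4 groups listed 336333 to 570362 sites and are called deep, and the other 15 listed 2814 to 9212 sites and are called shallow. Deep libraries held 227 to 425 HOX window sites each (4150 in all, at 1687 distinct positions) and shallow ones 5 to 22 (180 in all, at 114 distinct positions). Each group was either deep or shallow throughout, so depth cannot be told apart from the short or symmetric transposon or from piggyBat. Some libraries shared most of their sites. Of the sites of WT_hyPB replicate 1, 75.4% were listed in replicate 2, and of those of WT_PBat replicate 1, 52.5% in replicate 3, against 7.45% to 29.0% for all other pairs of replicates of a group. In the HOX windows the same shares were 78.7% (277 of 352 sites) and 62.5% (10 of 16). Results were therefore also computed with each of these 2 pairs averaged, and are given so where that changed a call.

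Some promoters in the clusters contain the target letters, and the sites can be set on them base by base. RefSeq windows from 250 bases before to 50 bases after a start matched 19 of the 39 HOX genes by symbol (26 windows), and 10 of these 26 windows (38.5%) contained TTAA, which reads the same on both strands, against 46.1% of all 34943 promoter windows of that length. The 10 windows held 19 TTAA, of which 7 had a site in any library. The 4 windows below show targets used often beside targets on which no site was listed. That of HOXA11-AS, an antisense gene, is not among the 10 windows of HOX genes. All 4 are written 5′ to 3′ on the gene's strand, with every TTAA in capitals, from RefSeq on GRCh38.p14.

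HOXA9, chr7:27165488-27165787, minus strand: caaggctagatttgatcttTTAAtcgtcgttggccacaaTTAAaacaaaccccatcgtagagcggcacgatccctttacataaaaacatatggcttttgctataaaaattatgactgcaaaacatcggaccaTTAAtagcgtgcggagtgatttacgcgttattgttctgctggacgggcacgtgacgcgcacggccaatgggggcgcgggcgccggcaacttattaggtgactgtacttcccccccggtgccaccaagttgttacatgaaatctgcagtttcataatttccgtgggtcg

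HOXA11-AS, chr7:27185158-27185457, plus strand: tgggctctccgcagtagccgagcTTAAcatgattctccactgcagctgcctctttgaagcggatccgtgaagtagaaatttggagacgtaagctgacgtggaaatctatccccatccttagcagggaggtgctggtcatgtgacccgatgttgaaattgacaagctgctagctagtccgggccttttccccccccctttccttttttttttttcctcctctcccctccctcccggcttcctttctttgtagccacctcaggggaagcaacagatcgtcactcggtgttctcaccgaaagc

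HOXD8, chr2:176129455-176129754, plus strand: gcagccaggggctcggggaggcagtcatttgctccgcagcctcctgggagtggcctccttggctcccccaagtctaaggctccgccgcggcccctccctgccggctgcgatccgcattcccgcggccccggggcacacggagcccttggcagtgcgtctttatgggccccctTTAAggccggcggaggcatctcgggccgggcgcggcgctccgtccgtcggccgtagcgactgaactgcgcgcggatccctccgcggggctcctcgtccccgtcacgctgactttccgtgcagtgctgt

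HOXD3, chr2:176157057-176157356, plus strand: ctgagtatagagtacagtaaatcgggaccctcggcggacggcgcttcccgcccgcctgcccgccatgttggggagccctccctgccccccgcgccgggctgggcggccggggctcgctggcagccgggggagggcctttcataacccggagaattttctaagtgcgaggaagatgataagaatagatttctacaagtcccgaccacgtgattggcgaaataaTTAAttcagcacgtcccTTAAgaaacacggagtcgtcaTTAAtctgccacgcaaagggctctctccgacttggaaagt

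The HOXA9 window, before a posterior gene known for its part in blood stem cells and leukaemia, held 3 TTAA. The TTAA at base 133 was listed in 11 of the 12 deep libraries and 1 shallow library, that at base 20 in 6 deep libraries and that at base 40 in none. The window of HOXA11-AS, an antisense transcript that starts beside HOXA11, had its TTAA at base 24 listed in 9 deep libraries. That of HOXD8, a central paralog, had its TTAA at base 173 listed in 7. In the HOXD3 window, before an anterior paralog, the TTAA at bases 223, 240 and 261 were listed in 0 libraries. Across all promoter windows of the genome, 97.7% of the deep libraries' sites (30148 of 30869), 97.9% of the shallow libraries' (1437 of 1468) and 97.7% of those of WT_PBat (291 of 298) stood on TTAA. The HOXA6 window was an exception: it had 1 TTAA with no site, while position chr7:27147809, where the plus strand reads TTAG, was listed in 3 libraries. The number of TTAA over the whole clusters was not analysed here, so no density below is per target.

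All 4 clusters held more sites than the rest of their chromosomes, HOXA and HOXB by the most. The density in the HOXA window was 3.11 times that of the rest of chromosome 7 between its outermost sites (2.48 to 3.62 times over the 12 deep libraries). The HOXB window stood at 2.46 times the rest of chromosome 17 (2.05 to 2.89). The ratio was 1.38 for HOXC on chromosome 12 (1.08 to 1.73) and 1.24 for HOXD on chromosome 2 (0.99 to 1.55). On the log2 scale these differences were 1.64 ± 0.15, 1.302 ± 0.17, 0.47 ± 0.22 and 0.31 ± 0.21 (SD, n = 12 libraries). HOXA, HOXB and HOXC were above their chromosome in 12 of 12 libraries and HOXD in 10. In exact sign-flip permutation tests over libraries, two-sided, p was 0.000488 for the first 3, the smallest this design allows, and 0.00195 for HOXD, with Benjamini-Hochberg adjusted p of 0.000651 and 0.00195 over the 4 clusters. The libraries are not all independent, as stated above, and averaging the linked pair left each of these 4 calls past 0.05.

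Read in bins of 50 kb over the genome, 23 of the 24 bins that touch a HOX window lay above the median of all 59138 bins. The median HOX bin held 15.04 sites per deep library, against 5.58 for all bins. Above the 95th percentile of all bins were 7 HOX bins, 3 of HOXA and 4 of HOXB. The bin with the most sites, chr17:48450000-48499999, reaches into the left flank of HOXB and had a mean of 53.5 sites (40 to 64 over libraries, percentile 99.6). It was followed by chr7:27150000-27199999 and chr17:48600000-48649999, each with a mean of 39.3 sites (percentile 99.02). The former runs from HOXA7 into HOXA13, the latter from HOXB6 past the end of HOXB9 into sequence without a HOX gene. The highest HOXC bin was at percentile 92.1 and the highest HOXD bin at percentile 90.5.

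Between the outermost HOX genes, the cluster bodies fell in the order HOXA, HOXB, HOXC, HOXD. The HOXB body includes a stretch without a HOX gene, from the end of HOXB9 (chr17:48626358) to the start of HOXB13 (chr17:48724763). Its bin chr17:48650000-48699999 held a mean of 15.6 sites per deep library, and the next, which runs past HOXB13, 12.75. The bins before it, from chr17:48500000 to 48649999, held 24.9, 22.75 and 39.3, the last reaching past HOXB9. The bins that touch the HOXA body held 21.1, 22.75, 39.3 and 11.5, the first and last mostly flank. In these bins HOXB before the stretch was not below HOXA. The density of HOXB without the stretch was not computed, so the order of HOXA and HOXB holds only for bounds that take it in. In WT_PB, the HOXA body held 160, 148 and 133 sites per Mb per 100000 library sites in replicates 1, 2 and 3, and the HOXB body 105, 117 and 115. These HOXA values were all above the HOXB values. Means in WT_PB were 147 ± 13.5 for HOXA, 112 ± 6.29 for HOXB, 59.2 ± 6.22 for HOXC and 57.6 ± 2.00 for HOXD (SD, n = 3). Over all 12 deep libraries the density of the HOXA body ran from 93.3 to 171 with a median of 141, that of HOXB from 93.0 to 142 with a median of 116, that of HOXC from 53.3 to 98.2 with a median of 69.1 and that of HOXD from 37.4 to 73.1 with a median of 56.6. All neighbouring ranges overlapped, and the HOXC range also reached into that of HOXA.

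Within libraries and for these bounds, HOXA exceeded HOXB by 0.25 ± 0.19 on the log2 scale (SD, n = 12) and in 11 of 12 libraries. The exact sign-flip p was 0.00195 and the adjusted p 0.00234 over the 6 pairs. HOXA exceeded HOXC by 1.00 and HOXD by 1.29, and HOXB exceeded them by 0.74 and 1.03, in 12 of 12 libraries each (exact p = 0.000488, adjusted p = 0.000732). HOXC and HOXD, neighbours at the low end, were the closest to equal. Their difference was 0.29 ± 0.42, in 9 of 12 libraries (exact p = 0.0391, adjusted p = 0.0391). That call ended with the linked libraries averaged (0.23, exact permutation, adjusted p = 0.0781), without replicate 1 of every group (0.13, adjusted p = 0.414) and without replicate 2 (0.27, adjusted p = 0.133).

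**Figure D1:**
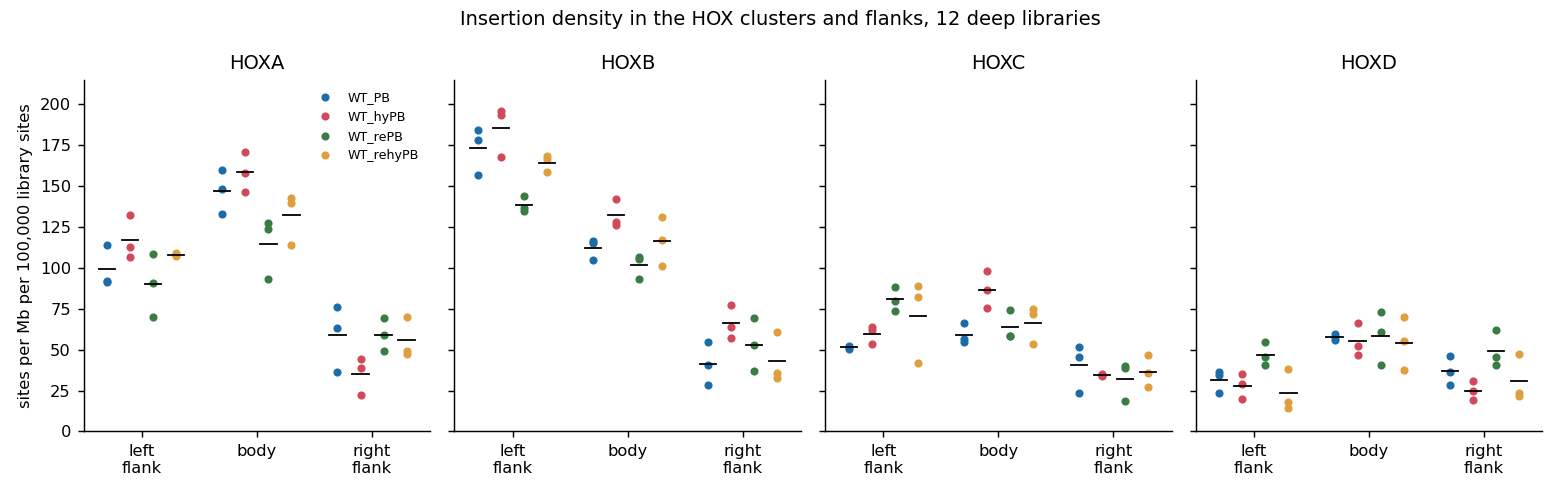
Insertion sites per Mb per 100000 library sites (y axis) in the left flank, body and right flank of each HOX cluster (x axis) for the 12 deep libraries. Points are libraries, coloured by group, and black lines are group means of 3. The HOXA body (93.3 to 171) and the left flank of HOXB (135 to 196) are the densest, and the HOXD flanks (14.0 to 61.8) are among the least dense.

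Insertions were denser in the cluster bodies than in their flanks for HOXA, HOXC and HOXD. The body exceeded its flanks by 0.81 ± 0.31 on the log2 scale for HOXA (1.75 times), by 0.42 ± 0.32 for HOXC (1.34 times) and by 0.74 ± 0.59 for HOXD (1.68 times; SD, n = 12 libraries). The body was the denser in 12, 12 and 11 of 12 libraries, with exact sign-flip p of 0.000488, 0.000488 and 0.00244 and adjusted p over the 4 clusters of 0.000977, 0.000977 and 0.00326. With flanks of 25 kb the HOXD value was 0.34, still past the threshold. The HOXD call was lost without replicate 3 of every group (0.52, exact permutation, adjusted p = 0.0521). HOXB did not pass, with 0.09 ± 0.18, 8 of 12 libraries and an exact sign-flip p of 0.125 (adjusted p = 0.125). Its body was taken with the stretch between HOXB9 and HOXB13, which holds no HOX gene.

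The flanks of HOXB held unlike densities, and left and right flanks were not tested against each other. The left flank of HOXB, which lies beyond HOXB1, held 167 sites per Mb per 100000 in the median deep library (135 to 196), above the HOXB body in the plot of densities, while its right flank beyond HOXB13 held 53.7 (28.5 to 77.5). These ranges did not overlap, while those of the other clusters' flanks did. In HOXA the left flank, at the anterior end, held 107 (70.0 to 132) and the right flank, which contains the homeobox gene EVX1, 49.1 (22.1 to 76.0). In HOXC the left flank beyond HOXC13 held 62.7 (41.6 to 88.9) and the right flank beyond HOXC4 35.5 (18.4 to 51.9). The flanks of HOXD were closer together, with 34.9 (14.0 to 54.6) and 33.7 (19.4 to 61.8). With flanks of 25 kb, which leave out the far end of the left flank of HOXB, the HOXB body exceeded its flanks by 0.84 (exact permutation, adjusted p = 0.000977).

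Along each window, sites were gathered in short stretches. In steps of 5 kb, the median of 188 steps held 15 sites over the 12 deep libraries, and the 10 densest steps held 961 of 4150 sites (23.2%). These 10 steps were picked by their deep counts, 7 of them in HOXB and 3 in HOXA. The densest, 45 to 40 kb before the HOXB body, held 134 deep sites and overlaps LOC124904019, annotated as a long non-coding RNA gene. The next, 70 to 75 kb into HOXA, held 127 and covers most of HOXA9 and part of the sequence toward HOXA10. A step 5 to 10 kb into HOXB, between HOXB1 and HOXB2, held 112. Of the 180 shallow sites, 81 (45.0%) lay in the same 10 steps. Some dense steps held hardly any of them. The step of 112 held 1 shallow site, and a step 40 to 45 kb into HOXA, inside HOXA3, held 87 deep sites and 0 shallow ones. The 3 steps with 0 deep sites lay at the right ends of the HOXA and HOXB windows. Only 1 of them, 150 to 155 kb into HOXA, was a full step, and it covers most of EVX1. The others were cut short by the window's end, at 155 to 157.099 kb in HOXA and 250 to 250.225 kb in HOXB.

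**Figure D2:**
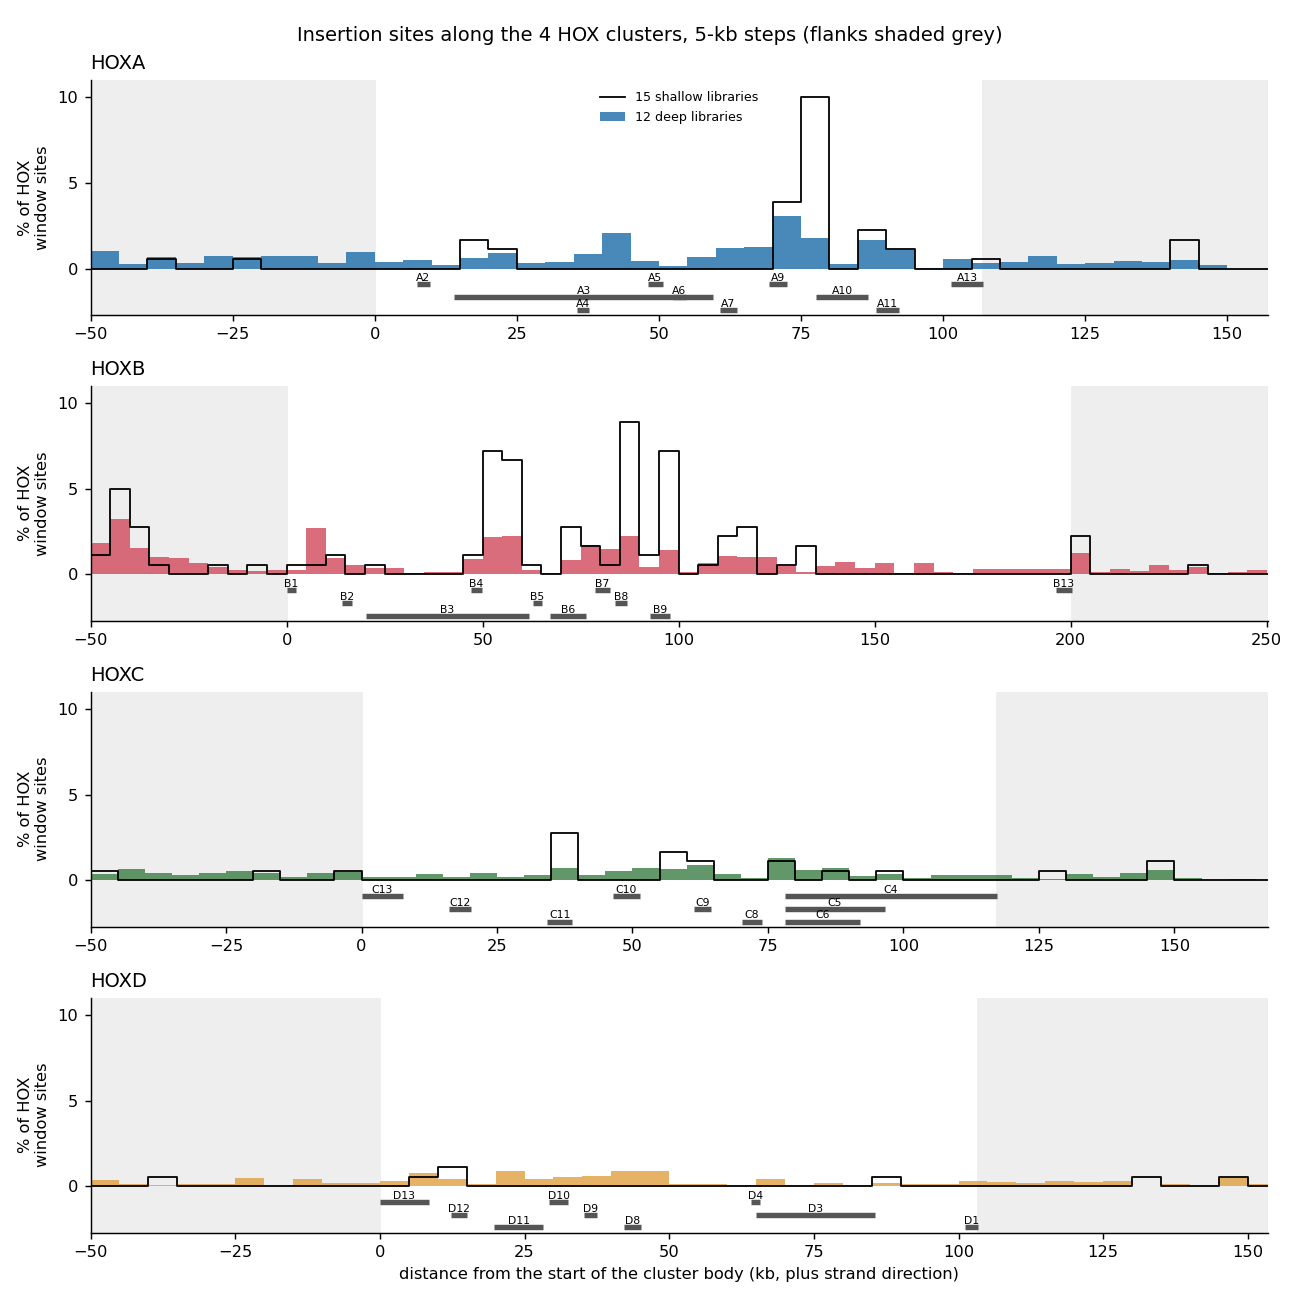
Percent of all HOX window sites (y axis) per 5-kb step along each window (x axis, kb from the start of the cluster body, in plus strand direction). Coloured bars are the 12 deep libraries pooled (4150 sites), black lines the 15 shallow libraries pooled (180 sites), grey areas the flanks, and dark bars HOX genes by number. Both sets have high steps in the left flank of HOXB, around HOXA9 and HOXA10 and between HOXB4 and HOXB9, and both are low in HOXD. The highest deep step is in that flank (3.23%). A deep step between HOXB1 and HOXB2 (2.70%) is low in the shallow set (0.556%).

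Counted by gene, 36 of the 39 HOX genes held at least 1 deep site, and 19 held a site in every deep library. The median HOX gene held 4.26 sites per kb over the 12 deep libraries pooled, against 1.74 for 20033 protein-coding genes, and 29 of 39 HOX genes were above the latter value. With 0 sites were 3 of 39 HOX genes (7.69%), near the 10.85% of protein-coding genes. Gene bounds were those of RefSeq, which overlap in places, so that a site can count for several genes. HOXA3 spans HOXA4, HOXA5 and HOXA6, HOXB3 spans HOXB4, and HOXC4 spans HOXC5 and HOXC6.

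The 5 HOX genes with the most sites per kb were HOXA9, HOXB8, HOXA11, HOXA7 and HOXA10. HOXA9 (chr7:27162438-27165537) held 59 deep sites at 15 positions, 19.0 per kb, with a lowest count of 1, a median of 5.5 and a highest of 8 per library. HOXB8, a central paralog involved in blood and neural patterning, held 47 sites, 15.9 per kb (2 to 5 per library, median 4). HOXA11, a gene of limb and uterine development, held 62 sites, 15.2 per kb (2 to 7, median 5.5). HOXA7 held 39, 13.2 per kb (2 to 5, median 3), and HOXA10, which also acts in the uterus, held 100, 10.80 per kb (5 to 12, median 8.5). These genes were listed in every deep library, and 3 of them are posterior HOXA genes lying side by side. Pooled over the 3 libraries of a group, and not tested per gene, HOXA10 held 2.16 sites per 100000 library sites with the piggyBac transposase, 2.51 with its hyperactive form, 1.38 with the re-engineered form and 1.68 with the re-engineered hyperactive form.

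At the other end, HOXC12, HOXD9 and HOXD4 had 0 deep sites, HOXA6 had 1 (0.420 per kb) and HOXB5 had 2 (0.793 per kb). These 5 genes span 1.68 to 4.05 kb. Neither HOXC12, HOXD9 nor HOXD4 had a shallow site. The promoter windows of HOXD4 contained 2 TTAA, with a site in 0 libraries.

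**Figure D3:**
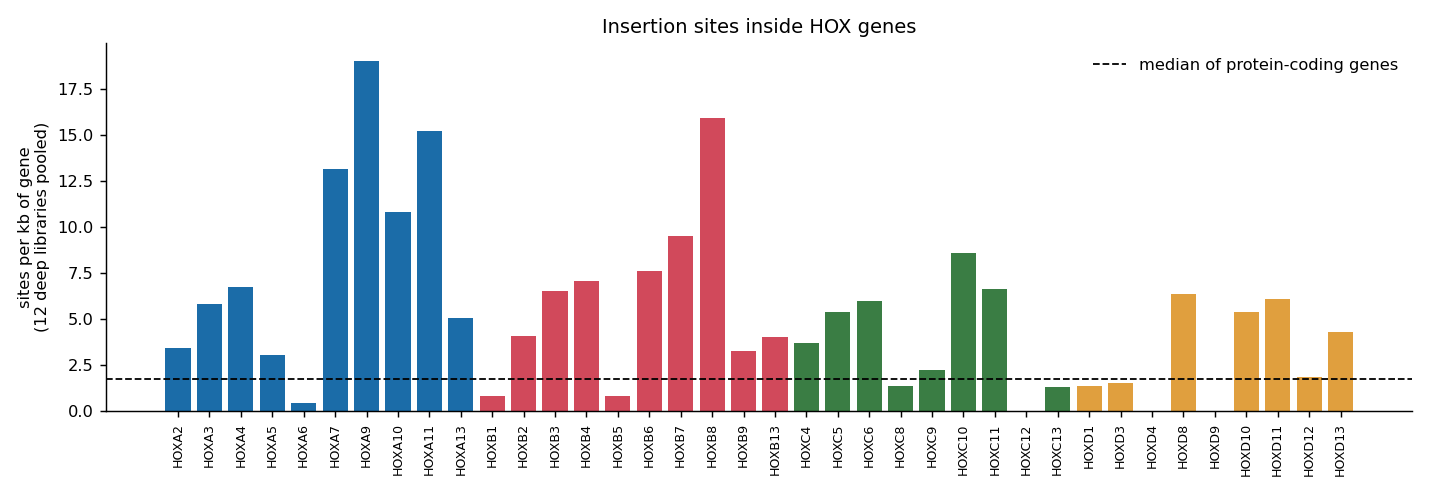
Insertion sites per kb of gene (y axis, 12 deep libraries pooled) for the HOX genes drawn (x axis, by cluster and paralog number, coloured by cluster). The dashed line is the median of 20033 protein-coding genes (1.74). HOXA9 stands highest at 19.0, and HOXC12, HOXD4 and HOXD9 are at 0.

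By paralog class, the median number of sites per kb was 3.38 for the 8 anterior genes (groups 1 to 3; 0.805 to 6.50), 5.96 for the 15 central genes (groups 4 to 8; 0 to 15.9) and 4.66 for the 16 posterior genes (groups 9 to 13; 0 to 19.0). The classes overlapped over most of their range. The posterior genes of HOXA had a median of 13.01 per kb (4 genes), and those of HOXB, HOXC and HOXD had 3.64 (2 genes), 2.203 (5 genes) and 4.26 (5 genes). The central genes had medians of 4.88 in HOXA (4 genes), 7.58 in HOXB (5), 4.53 in HOXC (4) and 3.18 in HOXD (2). Shallow sites fell in 17 HOX genes: 5 of HOXA, 7 of HOXB, 5 of HOXC and 0 of HOXD.

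Of the other protein-coding genes in the windows, HOXA10-HOXA9, a readthrough locus that spans both genes, held 270 deep sites (15.2 per kb). The next were TTLL6, a tubulin-modifying enzyme gene that reaches into the right flank of HOXB, with 23 sites in the part inside the window (1.39 per kb), and PRAC2, between HOXB9 and HOXB13, with 22 (3.61 per kb). EVX1 and EVX2, the homeobox genes at the ends of HOXA and HOXD, held 0 and 8. The median of the 6 protein-coding neighbours was 1.95 sites per kb, close to that of all protein-coding genes. Among the non-coding RNAs known to regulate HOX genes, HOTAIR, transcribed against HOXC genes, held 46 sites (3.64 per kb, 1 to 7 per deep library). HOTAIRM1, in the anterior part of HOXA, held 18 (4.32 per kb, 0 to 4), and HOTTIP, beyond HOXA13, held 15 (2.19 per kb, 0 to 4). These 3 values lie within the range of the HOX genes. Another, HOXBLINC within HOXB3, was named after its values were seen: it held 98 deep sites (21.3 per kb) and 20 of the shallow sites.

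Single positions recurred across libraries and groups. The position listed most often, chr7:27171418-27171421, lies inside HOXA10 and its antisense gene HOXA10-AS, and it was listed in 24 of 27 libraries and all 9 groups. The table used gives gene bounds only, so exons and introns are not distinguished. Its peak height, the highest coverage in the peak, was 45, 8 and 53 in WT_PB and 65, 61 and 49 in WT_hyPB. The re-engineered transposases gave 33 and 51 (2 WT_rePB libraries) and 24, 120 and 35 (WT_rehyPB). It was 41 in 1 short_PB library, 17, 25 and 17 in short_hyPB, 10, 7 and 17 in sym_rePB, 6, 9 and 7 in sym_rehyPB and 5, 51 and 16 in WT_PBat. Only WT_rePB replicate 2 and short_PB replicates 2 and 3 did not list it. Its strand differed between sets: all 11 deep libraries that listed it did so on the minus strand, 1 of them on both, while all 13 shallow ones listed it on the plus strand, 1 of them on both. Of 97 HOX window positions listed in both sets, 39 were on a single strand in each, and 36 of these were on the same strand. The position in HOXA10 is not among the 39, because a library of each set listed it on both strands. How often the main strand differed between the sets was not counted.

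The next position, chr17:48626974-48626977, is in no gene, just beyond HOXB9, and was listed in 12 deep and 10 shallow libraries, with none of WT_PBat among them. In the left flank of HOXB, chr17:48487343-48487346, inside LOC124904019, was listed in 12 deep and 6 shallow libraries. Inside HOXB13, a gene active in prostate and hindgut epithelium, chr17:48728688-48728691 was listed in 12 and 4. In HOXD, chr2:176097832-176097835 lies between HOXD13 and HOXD12 and was listed in 12 and 2, and in the right flank of HOXA chr7:27234535-27234538 was listed in 11 and 3. The positions were otherwise mostly rare. Of the 1687 distinct deep positions, 851 (50.4%) were in a single library and 15 in all 12. By cluster the share in a single library was 43.9% in HOXA, 43.1% in HOXB, 56.5% in HOXC and 68.0% in HOXD. Of the 114 shallow positions, 97 (85.1%) were also listed in a deep library, and of the 47 of WT_PBat, 41 were also listed in a piggyBac library. These shares depend on depth, and the same shares over all positions of the genome are not given here. By themselves they do not say whether HOX positions recur more or less than others.

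HOX sites recurred between replicates more often than sites elsewhere, and their peaks were taller. Per deep library, 36.3% to 84.6% of HOX sites (median 46.4%) were listed in another replicate of the group, against 22.9% to 80.4% (median 29.6%) of all sites. The difference was 14.4 ± 5.83 percentage points (SD, n = 12), positive in 12 of 12 libraries, with an exact sign-flip p of 0.000488. The highest shares were those of the linked WT_hyPB replicates 1 and 2. Median peak height at HOX sites was 12 to 19 (median library 15), against 10 to 13 (median 11) for all sites, a difference of 0.40 ± 0.09 on the log2 scale in 12 of 12 libraries (exact p = 0.000488). Among peaks of height 10 and above, the difference in recurrence was 13.1 points. When the middle of the peak stood for the site, it was 1.02 points, still with 0.00244 as the exact permutation p.

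Peaks in HOXA and HOXB were on the plus strand somewhat more often than on the minus strand. With both strands of a position counted, the plus share in HOXA was 54.6% ± 3.10 (51.2% to 62.9%) and in HOXB 53.9% ± 2.14 (51.7% to 58.4%; SD, n = 12 libraries), above 50% in 12 of 12 libraries. The exact sign-flip p was 0.000488 and the adjusted p over the 4 clusters 0.000977 for each. HOXC stood at 48.1% ± 4.54 (38.9% to 55.6%; adjusted p = 0.232, exact permutation) and HOXD at 47.8% ± 8.58 (33.3% to 62.5%; adjusted p = 0.382). The HOX promoters of HOXA and HOXB point to the minus strand, and those of HOXC and HOXD to the plus strand. So the excess in HOXA and HOXB was on the strand opposite to the HOX genes. The test was against 50%, and the plus share over all sites of the libraries is not given here. Whether the excess is particular to these clusters was not tested.

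The share of all sites in the HOX windows differed little between the transposases used with the wild-type transposon. WT_PB libraries had 78.4, 79.8 and 75.1 HOX window sites per 100000 library sites, and WT_hyPB libraries 85.2, 85.7 and 89.6. WT_rePB libraries had 77.3, 72.1 and 71.5, and WT_rehyPB libraries 67.5, 81.9 and 83.1. All WT_hyPB values were above all the others, and WT_rehyPB replicate 1 was the lowest of the 12. Group means, in that order, were 77.8 ± 2.44, 86.8 ± 2.38, 73.6 ± 3.19 and 77.5 ± 8.69 (SD, n = 3).

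The re-engineered transposases had the lower HOX share. The difference was −6.75 per 100000 averaged over both pairs of groups, −4.15 between the parental forms and −9.34 between the hyperactive ones (exact permutation p = 0.015, adjusted p = 0.045 over 9 comparisons). This call rested on the setting: it was lost with the linked libraries averaged (−7.09, adjusted p = 0.0788), with peaks of height 10 and above (−9.42, adjusted p = 0.225), with flanks of 100 kb (−5.41, adjusted p = 0.105) and per file total (−2.72, adjusted p = 0.33), all by exact permutation. It was also lost when any of 7 libraries was left out, replicates 1 and 2 of WT_PB, each replicate of WT_hyPB and replicates 2 and 3 of WT_rePB (−7.15 to −6.06, exact permutation, adjusted p = 0.054 to 0.108). The hyperactive form gave 6.47 more per 100000 (9.06 in WT_hyPB over WT_PB and 3.88 in WT_rehyPB over WT_rePB), not past the threshold after adjustment (exact permutation p = 0.045, adjusted p = 0.0675), and past it without WT_rehyPB replicate 1 (8.97, adjusted p = 0.03). The difference between the 2 hyperactive effects was 5.19 (exact permutation p = 0.41, adjusted p = 0.461). It was 0.184 without WT_rehyPB replicate 1 and 13.7 at height 10 and above, and did not pass under any alternative run.

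The share of HOX window sites that lay in a cluster body moved the same way by a few points. WT_PB stood at 65.8% ± 0.990, WT_hyPB at 68.2% ± 1.26, WT_rePB at 62.7% ± 2.17 and WT_rehyPB at 65.5% ± 2.69 (SD, n = 3). The hyperactive effect was 2.62 points (2.50 and 2.74, exact permutation p = 0.035) and the re-engineering effect −2.90 points (−3.02 and −2.78, exact permutation p = 0.03), each with an adjusted p of 0.063, not past the threshold. With flanks of 25 kb the re-engineering effect passed it (−3.06, exact permutation, adjusted p = 0.015).

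Of the 12 bodies and flanks, 0 passed for either effect in exact permutation tests adjusted over the 24 comparisons. At an unadjusted p under 0.05 there were 3 for the hyperactive and 4 for the re-engineering effect. The largest were in the bodies of HOXA and HOXB. HOXA body sites were lower with re-engineering by 3.14 per 100000 (−3.14, exact permutation p = 0.005, the smallest this design allows, adjusted p = 0.12), with 17.1, 15.9 and 14.3 in WT_PB against 13.3, 9.99 and 13.6 in WT_rePB, and 17.0, 15.7 and 18.3 in WT_hyPB against 12.2, 15.3 and 14.98 in WT_rehyPB. Neither pair of groups overlapped. HOXB body sites were 3.44 higher with the hyperactive form (exact permutation p = 0.015, adjusted p = 0.12), with 25.7, 25.2 and 28.5 in WT_hyPB against 21.0, 23.3 and 23.05 in WT_PB. The other pair overlapped, with 20.2, 26.2 and 23.4 in WT_rehyPB against 21.1, 21.4 and 18.6 in WT_rePB. The HOXC body stood at 10.2 ± 1.34 for WT_hyPB, 6.94 ± 0.729 for WT_PB, 7.46 ± 1.10 for WT_rePB and 7.80 ± 1.36 for WT_rehyPB (SD, n = 3). Its hyperactive effect was thus 3.23 between the parental and 0.340 between the re-engineered forms, a difference of 2.89 that did not pass (exact permutation p = 0.045, adjusted p = 0.33 over 12 regions). HOXD bodies had means of 5.62 to 6.02 in the 4 groups (SD between replicates 0.207 to 1.71), with effects of −0.336 for the hyperactive form and −0.00813 for re-engineering (exact permutation, adjusted p = 0.726 and 0.995).

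Tested over the whole genome in bins of 50 kb with limma (43923 bins with a mean of at least 2 sites), no HOX bin passed an adjusted p of 0.05 for either effect, nor did any other bin (0 of 43923, 0%). At an unadjusted p under 0.05 there were 4 of 24 HOX bins for the hyperactive effect, where the share over all bins was 10.9% (4784 bins), and 2 of 24 for the re-engineering effect, where it was 13.8% (6081 bins). The HOX counts are near those shares. The median HOX bin was at 0.07 on the log2 scale for the hyperactive effect (13 of 24 above 0), against −0.03 over all bins, and at 0.03 for the re-engineering effect (13 of 24), against 0.04. On simulated data with 200 of the bins changed, the fit recovered 1.00% of bins changed by 1 on the log2 scale and 85.0% of those changed by 2 (43725 and 43733 bins tested, hyperactive effect). Sizes in between were not simulated, and these shares are over all bins, which hold fewer sites than most HOX bins. The simulated counts were Poisson draws around each bin's mean, with no further spread between libraries and no linked libraries. Recovery in the real libraries may therefore be lower.

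The bins with the largest values can still be named. The bin from HOXA7 to HOXA13, chr7:27150000-27199999, was at −0.46 ± 0.15 for re-engineering (SE, unadjusted p = 0.00772, limma adjusted p = 0.211) and at 0.31 ± 0.15 for the hyperactive form (limma adjusted p = 0.47). In the right flank of HOXD, chr2:176200000-176249999 was at −0.57 ± 0.20 (SE, limma adjusted p = 0.332). These values have the same samples behind them as the regional tests above and add no separate evidence.

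**Figure D4:**
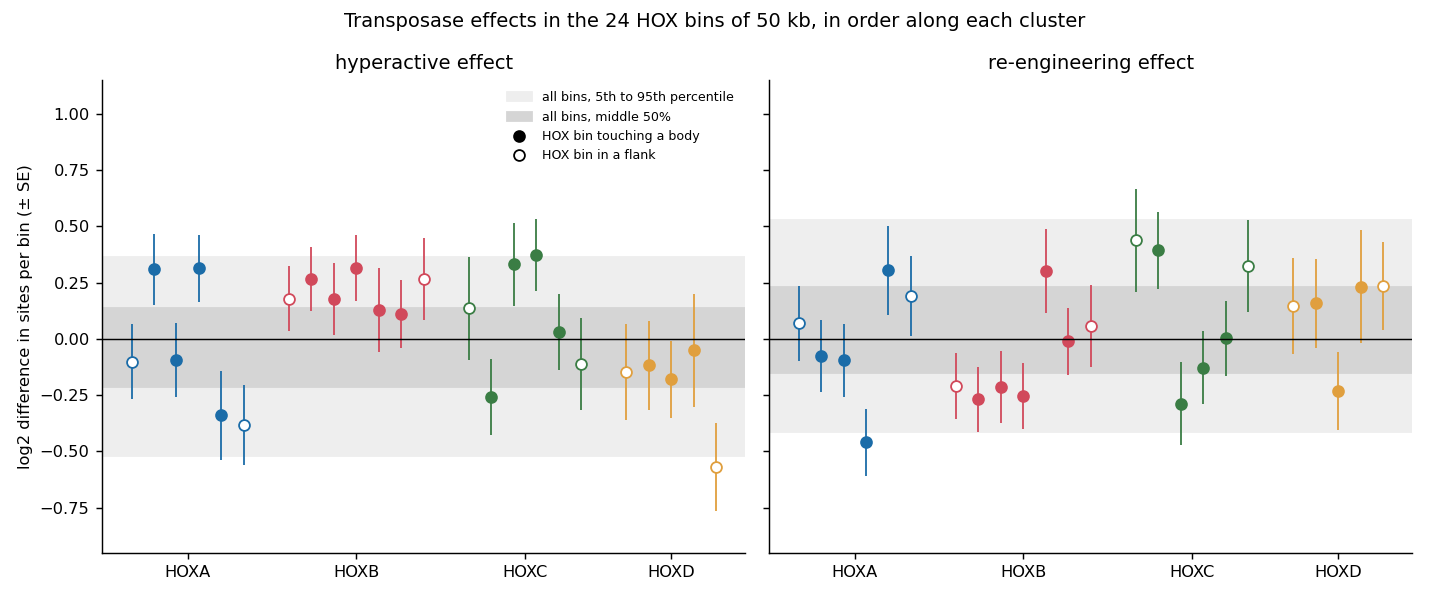
Log2 difference in sites per 50-kb bin (y axis, ± SE from limma, 12 deep libraries) for the hyperactive effect (left) and the re-engineering effect (right) in the 24 HOX bins, ordered along each cluster (x axis). Filled points touch a cluster body, open points lie in a flank, and grey bands hold the middle 50% and the 5th to 95th percentile of all 43923 bins. Outside the bands lie a HOXD bin (−0.57) and a HOXC bin (0.37) on the left and a HOXA bin (−0.46) on the right.

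The shallow groups had a higher HOX share than the deep groups. It was 130, 144 and 130 per 100000 library sites in short_PB (12, 13 and 12 sites), 148, 189 and 133 in short_hyPB (11, 13 and 10 sites), 156, 249 and 286 in sym_rePB (5, 7 and 9 sites), 203, 237 and 284 in sym_rehyPB (8, 9 and 13 sites) and 223, 290 and 248 in WT_PBat (16, 20 and 22 sites). Every one of the 15 values was above all 12 deep ones. Means were 135 ± 7.87, 157 ± 28.7, 230 ± 67.3, 241 ± 41.1 and 253 ± 33.8 (SD, n = 3).

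The short transposon exceeded the wild-type transposon by 63.4 per 100000 (57.1 with piggyBac, 69.7 with the hyperactive form) and the symmetric transposon by 160 (157 and 164), each with an exact permutation p of 0.005, the smallest possible, and an adjusted p of 0.0225. Both calls ended when each deep library was limited to its tallest peaks, as many as the shallow group had on average. The short transposon was then 1.39 higher (exact permutation, adjusted p = 0.955) and the symmetric one 36.1 higher (adjusted p = 0.392). In these subsets the HOX share of the deep groups was 142 ± 56.8 for WT_PB, 147 ± 34.6 for WT_hyPB, 196 in each WT_rePB library and 203 ± 98.4 for WT_rehyPB (SD, n = 3). The subsets held 6 to 19 HOX window sites per library, 6 in each of WT_rePB. HOX peaks were taller than others in the deep libraries, so a choice by height favours HOX sites and does not match depth alone. Both calls also ended at height 10 and above (42.9 and 203 higher, adjusted p = 0.495 and 0.225, exact permutation) and per file total.

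**Figure D5:**
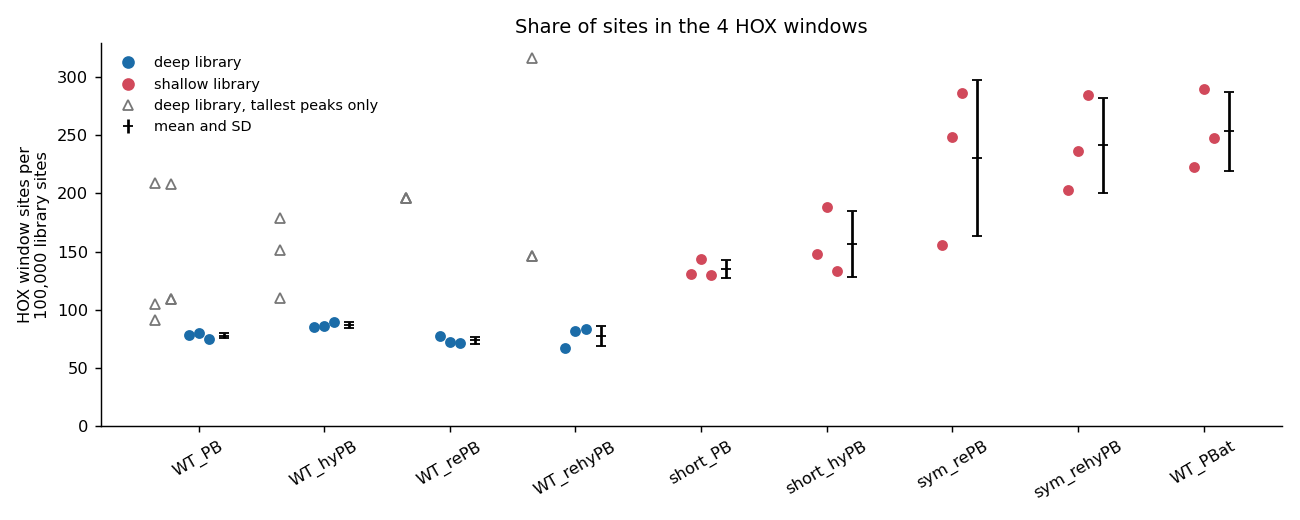
HOX window sites per 100000 library sites (y axis) in the 9 groups (x axis). Filled points are libraries (blue deep, red shallow), black bars the mean and SD of 3, and open triangles the deep libraries limited to their tallest peaks at the site number of the matched shallow groups. The deep libraries lie at 67.5 to 89.6 and the shallow ones at 130 to 290, and the triangles reach the shallow range.

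The piggyBat libraries had the highest mean share, 176 per 100000 above WT_PB, without overlap. The exact permutation p was 0.1, the smallest that groups of 3 allow (adjusted p = 0.129). WT_PBat replicates 1 and 3 share 10 HOX window sites, so the 3 piggyBat libraries are not independent. WT_PB limited to its 7652 tallest sites stood at 135 ± 64.5 (SD, n = 3; 8, 16 and 7 HOX window sites), which leaves WT_PBat 118 higher. Against the other shallow groups, a comparison added after the values were seen, WT_PBat was 119 above short_PB and 97.0 above short_hyPB without overlap (exact permutation p = 0.1 each, adjusted p = 0.2 over 12), and 23.2 above sym_rePB and 12.2 above sym_rehyPB with overlap (p = 0.7 each, exact). Between hyperactive and parental forms within the shallow groups the HOX share differed by 16.3 (exact permutation p = 0.485, adjusted p = 0.485), and the direction turned without sym_rePB replicate 1 (−2.35) and per file total (−2.74).

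The shallow sites were pooled to compare the clusters. In all 5 shallow groups HOXB held most of them: 21 of 37 window sites in short_PB, 22 of 34 in short_hyPB, 12 of 21 in sym_rePB, 20 of 30 in sym_rehyPB and 36 of 58 in WT_PBat. Pooled, HOXB held 61.7% of the 180 sites (95% Clopper-Pearson interval 54.1% to 68.8%), HOXA 23.3% (17.4% to 30.2%), HOXC 11.1% (6.92% to 16.6%) and HOXD 3.89% (1.58% to 7.85%). In the deep libraries these shares were 42.8%, 28.5%, 16.8% and 11.9% of 4150 sites. Per length, the pooled shallow bodies held 485 sites per Mb per 100000 library sites in HOXB, 369 in HOXA, 127 in HOXC and 41.3 in HOXD. HOXB was thus above HOXA (−0.38 on the log2 scale for HOXA over HOXB), with no test on the pooled counts. This is the reverse of the deep libraries, whose order holds only for bounds that take in the stretch between HOXB9 and HOXB13. The order was not the same in all groups: sym_rePB held 509 in HOXA and 490 in HOXB, from 5 and 9 sites, and short_PB replicate 1 held 203 and 163. The intervals cover counting error only, and libraries of a group share positions, so they are too narrow. WT_PBat had 0 of 58 sites in the HOXD window (interval 0% to 6.16%), and so did short_hyPB with 0 of 34.

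Pooled, more of the shallow sites lay in cluster bodies. In bodies were 146 of the 180 (81.1%, interval 74.6% to 86.5%), against 2719 of 4150 deep ones (65.5%, 64.05% to 67.0%). For WT_PBat the body share was 87.5%, 85.0% and 95.5% in its 3 libraries, against 61.2% to 69.7% over the 12 deep libraries, without overlap. WT_PBat replicates 1 and 3 share 10 HOX window sites, so its 3 values are not independent. The 3 libraries of sym_rehyPB also lay above the deep range, and the remaining shallow groups did not throughout. Library by library the share was 66.7%, 76.9% and 83.3% (short_PB), 90.9%, 61.5% and 80% (short_hyPB), 60.0%, 85.7% and 77.8% (sym_rePB) and 87.5%, 77.8% and 76.9% (sym_rehyPB). The 60.0% of sym_rePB replicate 1, 3 of 5 sites, was below every deep library. WT_PBat had 14 of 14 HOXA sites and 32 of 36 HOXB sites in the body. Inside HOXB3, a long anterior gene whose bounds also take in HOXB4 and HOXBLINC, were 12 of its sites. Of these, 7 lay in HOXBLINC.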

How the data were processed

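Each of the 27 libraries came as a list of peaks of read coverage, 1 file per library, with chromosome, start, end, strand and a peak height. Height is a coverage signal, deposited by the authors with no stated normalization, and was at least 5 in every row. The submitters' processing notes name cutadapt 3.4, HISAT2 2.2.1.0, hg38 and GRCh38.p5, while the peak caller and any removal of duplicates are not given in the sources used here. A constant column of each file was read as its total and used only in an alternative.

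The site was the start of a plus-strand peak or the end minus 3 of a minus-strand peak, and each site counts as 1 whatever its height. HOX genes and their bounds came from RefSeq on GRCh38.p14, which shares coordinates with hg38 on the main chromosomes, and gave gene bounds without exons. Python 3.11.15, NumPy 2.4.6, pandas 2.3.3 and SciPy 1.17.1 were used for counts and for exact two-sided permutation tests, within pairs of groups for transposase effects and by sign flips over the 12 deep libraries otherwise, with Benjamini-Hochberg adjustment. Log2 ratios had 0.5 added to each count. Bins of 50 kb were fitted in R 4.3.3 with limma 3.58.1 on log2 of sites per 100000 plus 0.5, over the 12 deep libraries, and the fit was tested on simulated data.

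Genes named with values were the 5 HOX genes with the most sites per kb, the 5 with the fewest, the 3 other protein-coding genes with the most sites, HOTAIR, HOTTIP and HOTAIRM1, with the 6 positions listed in the most libraries. Other genes named with values were chosen after these were seen. Members and lists were chosen with earlier results of these data known. Replicate numbers did not pair libraries: over 18 same-numbered pairs of deep libraries the correlation of deviations over bins was −0.0061 to 0.015. The number of TTAA outside promoter windows was not used here. Values of 1 HOX gene are not reported here, and it is not drawn, though it is counted among the genes.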

Additional observations from a re-analysis of the deposited data

How the results depend on the processing

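Over 33 results, 365 alternatives were run, and in 319 the result was the same. For an effect this means the same direction and side of the threshold. For the counts of regions and bins called it means a count of 0 again, which has no direction. The lower HOX window share of the re-engineered forms (−6.75 per 100000) lost its call at height 10 and above (−9.42), with flanks of 100 kb (−5.41), per file total (−2.72) and with linked libraries averaged (−7.09), and ran from −8.14 to −4.24 with a library left out. The short transposon's excess lost its call at height 10 and above (42.9), per file total (18.3) and against the tallest peaks (1.39). The symmetric transposon's did so at the same settings (203, 1.22 and 36.1). The tallest peaks favour HOX sites, as stated above, and do not match depth alone. With 1 library left out the 2 excesses were 55.4 to 69.2 and 146 to 179, and the piggyBat excess 158 to 191. Numbers pair no libraries, and with the replicate block the values were −6.75, 63.4 and 160, each with an adjusted p of 0.0938 from the exact permutation test, which ended these 3 calls and no other. Their p of 0.0312 before adjustment is the smallest this block allows, so the loss says nothing about stability. The hyperactive effect in shallow groups turned to −2.74 per file total and ran from −2.35 to 30.3 with a library left out, the lowest without sym_rePB replicate 1. In deep groups it ran from 5.08 to 8.97, past the threshold without WT_rehyPB replicate 1. For the body share, the hyperactive effect ran from 1.90 to 3.24 points, past it without WT_rePB replicate 3 or WT_rehyPB replicate 1, and the re-engineering effect from −3.62 to −2.29, past it without WT_rehyPB replicate 2 and with flanks of 25 kb (−3.06).

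HOXC over HOXD was 0.23 with linked libraries averaged and 0.13 to 0.46 with a replicate left out. HOXB body over flanks was 0.84 with flanks of 25 kb and 0.049 to 0.16 with a replicate left out (past the threshold without replicate 1), and HOXD body over flanks 0.52 to 0.97. The plus-strand excess in HOXC was −4.19 points at height 10 and above, past the threshold, and that in HOXD ran from −5.83 to 1.04, positive without replicate 2. In pooled shallow libraries body over flanks was 2.67, 1.16, 0.93 and 0.31 for HOXA, HOXB, HOXC and HOXD (the last lower than in deep libraries), and the order of bodies was −0.38 for HOXA over HOXB, 1.501 and 3.01 for HOXA over HOXC and HOXD, 1.89 and 3.39 for HOXB over them and 1.51 for HOXC over HOXD. With bins of 100 kb 2 bins were called for the hyperactive effect, and with a prior of 1 there was 1 for re-engineering. The causes were not tested. Comparing WT_PBat with other shallow groups was added after seeing the data. Shallow libraries held 5 to 22 HOX sites each, which limits every comparison that uses them.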
